A study of Homo sapiens with 18 samples.

Results

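Cells that cannot make guanine nucleotides through IMPDH2 can be helped in 2 ways, by feeding them guanosine or by giving the enzyme back, and the messenger RNA of both was compared here. The 6 libraries of this comparison, of 18 in the whole study, were chosen by their labels. Of these, 3 came from IMPDH2-knockout cells grown with 400 µM guanosine (KO + guanosine) and 3 from IMPDH2-knockout cells that carry a returned IMPDH2 with no localisation tag, labelled IMPDH2-WT (KO + IMPDH2). All cells were the triple-negative, mesenchymal breast cancer line MDA-MB-231, grown in DMEM with serum. The remaining 12 libraries, 3 in each group, came from knockout cells with nuclear IMPDH2, knockout cells with cytosolic IMPDH2, knockout cells with no addition (KO), and unedited cells (WT). Both compared groups therefore share the knockout, and differ both in the nucleoside in the medium and in the presence of a construct. The labels give neither the promoter or vector of the construct, nor the number of clones, nor how long guanosine was present. Whether the 3 libraries in each group were separate cultures is not stated either, so each p-value measures the spread between these samples, which may be technical.

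Inosine monophosphate dehydrogenase oxidises IMP to XMP, the committed step from the common purine precursor to GMP, GDP and GTP. IMPDH2 is the form that proliferating cells raise, and IMPDH1 is its close relative. Guanosine bypasses that step: equilibrative transporters carry it into the cell, purine nucleoside phosphorylase (PNP) splits off the sugar, and hypoxanthine-guanine phosphoribosyltransferase (HPRT1) turns the freed guanine into GMP. The study's title concerns nuclear IMPDH2, the DNA damage response and PARP1, so gene lists for repair, ADP-ribosylation and the cell cycle were read beside those for metabolism.

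Across the genome the 2 rescues left transcriptomes that differed at many genes by small amounts. Estimated counts summed to between 45.9e6 and 55.6e6 in each of the 6 libraries. After low counts were filtered out, 19252 genes were tested. Of these, 7230 (37.6%) differed at an adjusted p under 0.05, 3582 (18.6%) higher and 3648 (18.9%) lower in KO + guanosine (edgeR quasi-likelihood test, Benjamini-Hochberg adjustment over all genes tested). These shares of 18.6% higher and 18.9% lower are the background for every list count in this contrast. The values of the 2 groups did not overlap at 49.9% of genes. The median size of the log2 difference among the called genes was 0.25. A difference of 2-fold or more was reached by 527 genes (2.74%), 233 of them higher (1.21%) and 294 lower (1.53%). The middle 50% of all log2 differences ran between -0.17 and 0.17 around a median of 0.00. On the principal components of log2 expression, KO + guanosine libraries lay between 10.7 and 12.6 and KO + IMPDH2 libraries between 16.1 and 17.3 on the first axis, which held 45.4% of the variance. On the second axis, with 10.7% of the variance, KO + guanosine lay between -24.0 and -22.2 and KO + IMPDH2 between -9.1 and -5.5. The KO libraries lay between 43.8 and 47.0 on that axis, so both rescued groups stood on the other side of 0 from the unrescued knockout. There 0 is only the mean of the 18 libraries. WT libraries lay between 6.6 and 7.3 on that axis, on the same side of 0 as KO, so both rescued groups lay past WT. On the first axis WT lay between -103.3 and -101.8, far from both. Against KO, 56.5% of genes differed in KO + guanosine and 50.8% in KO + IMPDH2, and these contrasts share the KO libraries.

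The targeted gene separated the groups completely. IMPDH2 lies on the minus strand at chr3:49024325-49029408 (GRCh38, GENCODE 29). Its level was 22.02, 22.23 and 22.05 CPM (counts scaled by TMM to a common library size) in KO + guanosine, against 531.7, 542.8 and 522.0 CPM in KO + IMPDH2. No library of either group came near the other group. The log2 difference was -4.59 ± 0.036 (SE, n = 3 each), with an adjusted p of 9.98e-23 in edgeR's quasi-likelihood test. As a share of the unedited level, IMPDH2 stood at 6.93% in KO + guanosine, 167% in KO + IMPDH2, 93.3% with the nuclear form, 119% with the cytosolic form and 13.1% in KO. The guanosine-fed cells also had less IMPDH2 transcript than the unfed knockout, by a log2 difference of -0.91 (adjusted p = 8.06e-13 in the same edgeR fit). KO + IMPDH2 was above the nuclear line by 0.84 and above the cytosolic line by 0.49 on the log2 scale. Part of the signal in KO + guanosine came from transcripts other than the main coding one: IMPDH2-201 had 0, 7.43 and 10.1 CPM in KO + guanosine, against 514, 516 and 502 CPM in KO + IMPDH2.

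Neighbouring annotation at the same place also moved and is uncertain for that reason. QRICH1, the next gene on the same strand (chr3:49029707-49094363), had 110.5, 103.2 and 107.5 CPM in KO + guanosine, against 13.01, 7.44 and 12.82 CPM in KO + IMPDH2, a log2 difference of 3.27 ± 0.16 (SE; adjusted p = 6.78e-11, edgeR). The unnamed gene ENSG00000290315, which the annotation used here does not place, had 3.27, 3.59 and 2.15 CPM in KO + guanosine, against 236.8, 226.9 and 216.5 CPM in KO + IMPDH2. QRICH1 was thus higher and the unnamed gene lower in KO + guanosine, each without overlap. Summed over QRICH1 and ENSG00000290315, the level was 110.05 CPM in KO + guanosine and 238 CPM in KO + IMPDH2. Summed over IMPDH2 and ENSG00000290315, it was 25.1 CPM in KO + guanosine and 759 CPM in KO + IMPDH2. That sum was 450 CPM with the nuclear form, 571 CPM with the cytosolic form, 45.0 CPM in KO and 392 CPM in WT. By it the nuclear form stood above WT, whereas by IMPDH2 alone it stood below. How the quantifier divided reads between these annotations was not tested, so QRICH1 is not read as a change of its own.

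**Figure D1:**
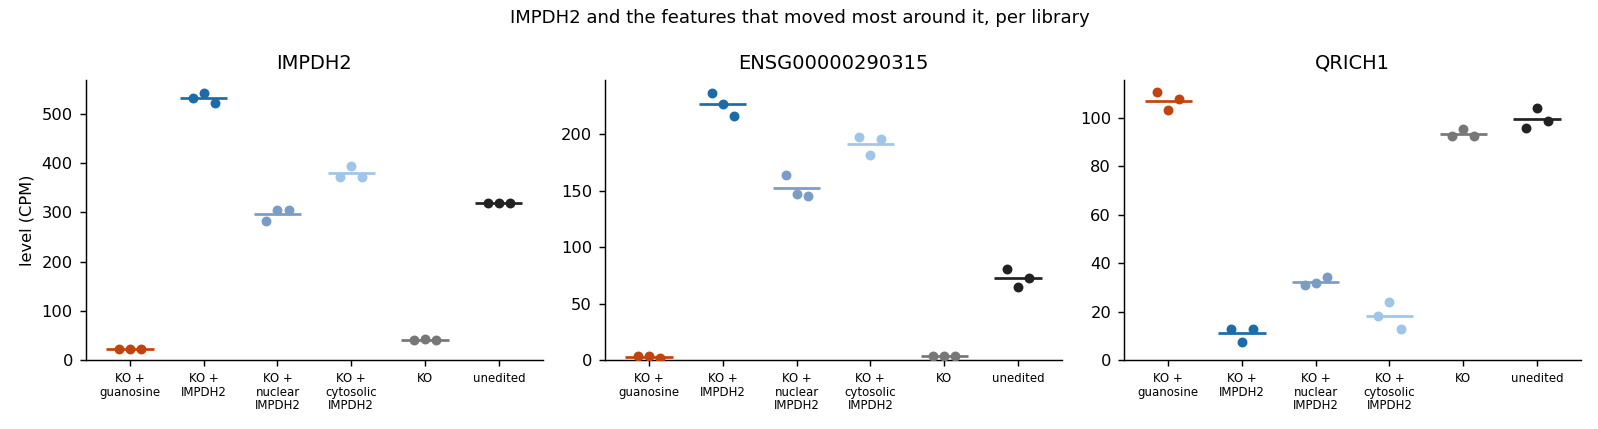
Levels of IMPDH2, ENSG00000290315 and QRICH1 in CPM on linear axes from 0, 1 point for each library of the 6 groups, with a line at each group's mean and WT shown as unedited. IMPDH2 lies between 22.02 and 22.23 CPM in KO + guanosine and between 522 and 543 CPM in KO + IMPDH2, while QRICH1 lies between 103 and 110.5 CPM in KO + guanosine and between 7.44 and 13.01 CPM in KO + IMPDH2.

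PNP and HPRT1, the enzymes that salvage guanosine, were slightly lower in KO + guanosine than in KO + IMPDH2. Of the 15 tested guanine-branch genes, 3 were higher and 7 lower in KO + guanosine, against 18.6% and 18.9% of all genes. IMPDH1 had 44.7, 48.0 and 45.2 CPM in KO + guanosine, against 52.4, 53.1 and 51.6 CPM in KO + IMPDH2. These groups did not overlap, and the log2 difference was -0.19 ± 0.032 (SE; adjusted p = 0.00017, edgeR). PNP differed by -0.20, HPRT1 by -0.13, the guanylate kinase GUK1 by -0.18 and the nucleoside diphosphate kinase NME1 by -0.19 on the log2 scale, all called lower. The 3 called higher were GMPR, which returns GMP to IMP, by 0.18, the nucleotidase NT5C2 by 0.23 and NME3 by 0.26. GMPS, which makes GMP from XMP, differed by 0.00 and did not pass. The remaining members that did not pass were GMPR2, NME2, NME4 and NME6, and the guanine deaminase GDA had too few counts to be tested.

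The purine breakdown enzyme XDH showed the second-largest fold of this branch. XDH oxidises hypoxanthine and xanthine to uric acid. It had 1.40, 1.20 and 1.31 CPM in KO + guanosine, against 2.45, 2.63 and 2.47 CPM in KO + IMPDH2, without overlap. The log2 difference was -0.95 ± 0.15 (SE; adjusted p = 4.72e-05, edgeR), and the call was lost with an offset for transcript length (adjusted p = 0.0986). Per length, the salvage enzymes were abundant in both groups. PNP averaged 155 TPM in KO + guanosine and 179 TPM in KO + IMPDH2, and HPRT1 averaged 68.8 TPM in KO + guanosine and 77.1 TPM in KO + IMPDH2. In KO, without guanosine, PNP averaged 169 TPM and HPRT1 62.7 TPM. Set beside KO, the mean of KO + guanosine was thus lower for PNP and higher for HPRT1. IMPDH1 averaged 25.9 TPM in KO + guanosine, above the 13.2 ± 0.12 TPM of IMPDH2 in those cells (SD, n = 3), whereas in KO + IMPDH2 it averaged 29.4 TPM beside 381 ± 9.3 TPM of IMPDH2.

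Nucleoside transport and adenine-side salvage changed in both directions. Of 22 tested genes, 6 were higher and 9 lower, beside 18.6% and 18.9% of all genes, with a median log2 difference of -0.02. The main guanosine carrier SLC29A1 had 193, 196 and 200.4 CPM in KO + guanosine, against 185, 193 and 190.4 CPM in KO + IMPDH2, and the difference of 0.05 did not pass. Its relative SLC29A2 was higher by 0.18 (adjusted p = 0.0112, edgeR). Adenosine deaminase, ADA, was lower by a log2 difference of -0.43, and the AMP deaminase AMPD3 by -0.52. AMPD2 was called lower by -0.32, but the direction turned with the transcript length offset (0.10). Of 14 tested genes of de novo purine synthesis and adenylate handling, 6 were lower and 1, PPAT, the first committed step, was higher by 0.15. ADSS1, the muscle form of adenylosuccinate synthase, was lower by -1.06, and ATIC, which closes the ring to IMP, by -0.23. Of 10 purine receptors 2 were higher and 2 lower, and of 8 genes of tetrahydrobiopterin synthesis, which starts from GTP, 1 was higher and 1 lower. The 23 GTP-binding nucleolar and RNA polymerase I genes had 4 higher and 7 lower, and 33 ribosome biogenesis genes had 3 higher and 9 lower. With the transcript length offset the nucleolar list kept 1 higher and 1 lower, and the ribosome biogenesis list 1 higher and 4 lower.

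**Figure D2:**
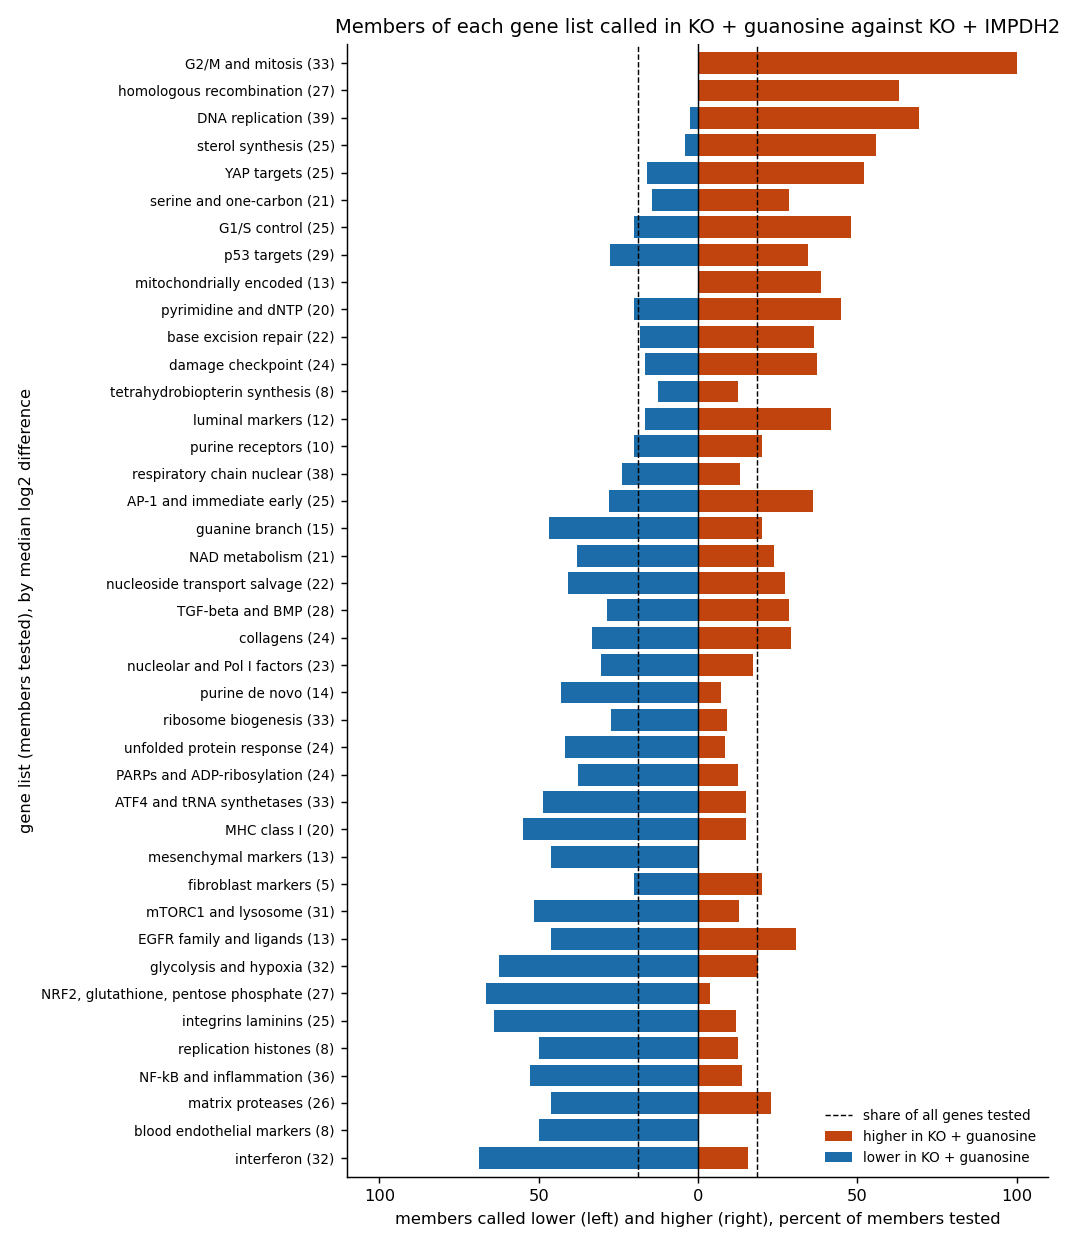
Share of the tested members of each gene list that were called higher (right) or lower (left) in KO + guanosine than in KO + IMPDH2, in percent, with dashed lines at the shares over all 19252 genes tested, 18.6% and 18.9%. The G2/M list lies wholly on the higher side, and the NRF2, interferon and integrin and laminin lists have 64% or more of their members on the lower side.

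Genes of G2 and mitosis were higher with guanosine without exception among those tested. All 33 tested members were called higher in KO + guanosine (18.6% of all genes), by log2 differences between 0.17 and 0.58 with a median of 0.33. With the transcript length offset 29 were called higher and 0 lower, and with 1 library left out at a time 32 to 33 were called higher. Their summed level ran from 5331 to 5390 CPM in KO + guanosine and from 4163 to 4293 CPM in KO + IMPDH2. Set against KO, 33 of 33 were higher in KO + guanosine (median 1.24) and 33 of 33 in KO + IMPDH2 (median 0.88), where 27.3% and 25.7% of all genes were higher. Set against WT, 22 were lower and 2 higher in KO + guanosine (median -0.20), and 33 were lower in KO + IMPDH2 (median -0.57), beside 32.9% and 33.4% of all genes lower. These contrasts share libraries with each other. KO + guanosine was also above the other lines that carry IMPDH2, at 33 of 33 genes against the nuclear form and 32 of 33 against the cytosolic form, where 18.6% and 22.2% of all genes were higher. In bulk RNA, fewer cells in a phase and less RNA in each cell cannot be told apart.

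Promoter sequences of 3 of these genes are shown because cell-cycle promoters of this class often combine a CCAAT box, bound by NF-Y, with a cell-cycle homology element read by DREAM and MuvB complexes. They come from RefSeq (GRCh38.p14), cover at most 250 bases before the start site, and end where the annotated gene begins. Capitals mark CCAAT or TTTGAA on either strand, TTTGAA being the core of the homology element, and no matches overlap. TOP2A (topoisomerase II alpha, which untangles DNA) is at chr17:40417951-40418146 on the minus strand, PLK1 (the polo-like mitotic kinase) at chr16:23678639-23678888 on the plus strand, and CENPA (the centromeric histone H3) at chr2:26785806-26786055 on the plus strand.
TOP2A: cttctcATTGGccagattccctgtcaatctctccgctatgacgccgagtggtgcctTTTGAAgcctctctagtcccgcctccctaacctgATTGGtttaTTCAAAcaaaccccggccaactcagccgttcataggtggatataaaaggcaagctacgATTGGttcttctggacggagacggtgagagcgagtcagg
PLK1: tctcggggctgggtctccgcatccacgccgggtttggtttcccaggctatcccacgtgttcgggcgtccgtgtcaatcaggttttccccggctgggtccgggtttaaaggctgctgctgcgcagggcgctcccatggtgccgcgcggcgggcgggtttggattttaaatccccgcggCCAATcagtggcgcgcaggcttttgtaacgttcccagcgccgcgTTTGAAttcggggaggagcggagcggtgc
CENPA: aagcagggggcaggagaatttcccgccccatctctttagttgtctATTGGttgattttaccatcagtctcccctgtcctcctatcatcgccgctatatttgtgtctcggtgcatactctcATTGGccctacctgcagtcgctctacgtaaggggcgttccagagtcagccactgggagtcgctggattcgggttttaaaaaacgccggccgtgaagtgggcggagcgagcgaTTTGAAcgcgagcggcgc
Of 27 list members with an entry, CCAAT was found in 22 (81.5%), against 33.0% of all 27305 promoters of the same length. TTTGAA was found in 13 (48.1%), against 13.6% of all promoters, and 12 members held both. In PLK1 the matches start at -73 and -29 from the start site. A match is a description of the letters and not a measured binding site.

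All 3 genes were clearly separated. TOP2A had 697, 703 and 699 CPM in KO + guanosine, against 483, 504 and 509 CPM in KO + IMPDH2 (log2 difference 0.49 ± 0.031, SE; adjusted p = 1.37e-09, edgeR). PLK1 had 112, 109.8 and 110.1 CPM in KO + guanosine, against 82.6, 84.1 and 82.1 CPM in KO + IMPDH2, a difference of 0.41. CENPA had 39.7, 40.5 and 37.1 CPM in KO + guanosine, against 26.3, 28.6 and 28.2 CPM in KO + IMPDH2, a difference of 0.50. In none of them did a library of one group reach into the other. The largest differences of the list belonged to AURKB, the chromosomal passenger kinase, and CCNA2, cyclin A2. AURKB had 107, 115 and 116 CPM in KO + guanosine, against 73.3, 75.8 and 77.2 CPM in KO + IMPDH2 (0.58 ± 0.031, SE; adjusted p = 1.37e-10, edgeR). CCNA2 had 125, 123 and 118 CPM in KO + guanosine, against 80.2, 82.9 and 82.3 CPM in KO + IMPDH2, also 0.58. BIRC5 (survivin), the partner of AURKB in the passenger complex, averaged 149 CPM in KO + guanosine and 105.3 CPM in KO + IMPDH2, beside 48.2 CPM in KO and 152 CPM in WT. The guanosine-fed level of BIRC5 thus lay next to the unedited level, with the enzyme-rescued level below it and the knockout lowest.

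Replication and repair genes moved the same way at fewer members. Of 39 replication genes 27 were higher and 1 lower in KO + guanosine, beside 18.6% and 18.9% of all genes. The median log2 difference was 0.20. The licensing factor CDT1 had 62.2, 62.7 and 59.3 CPM in KO + guanosine, against 39.6, 40.5 and 37.2 CPM in KO + IMPDH2 (0.65 ± 0.054, SE; adjusted p = 3.87e-08, edgeR). Its inhibitor GMNN was higher by 0.35 and the polymerase subunit POLD1 by 0.50, while the origin subunit ORC3 was the single lower member at -0.12. The MCM2, MCM4, MCM5 and MCM6 helicase subunits and the clamp PCNA did not pass, with differences between -0.09 and 0.05, whereas MCM3 and MCM7 were higher by 0.16 and 0.28. With the transcript length offset 15 replication genes were called higher and 1 lower. Of 27 homologous recombination genes 17 were higher and 0 lower (median 0.21), among them BRCA1 by 0.43, RAD54L by 0.57 and FANCI by 0.33, and 6 were called higher with the offset. Base excision repair had 8 higher and 4 lower of 22, and damage signalling with end joining 9 higher and 4 lower of 24. Their lower shares of 18.2% and 16.7% were near the 18.9% of all genes.

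Several genes of deoxynucleotide supply were higher as well. TYMS, which makes dTMP, had 184, 191 and 184 CPM in KO + guanosine, against 120.05, 128 and 126 CPM in KO + IMPDH2, a log2 difference of 0.58 ± 0.032 (SE; adjusted p = 2.46e-10, edgeR). Thymidine kinase TK1 was higher by 0.58 and the ribonucleotide reductase subunit RRM2 by 0.46. Over the 20 tested pyrimidine and deoxynucleotide genes, 9 were higher and 4 lower, beside 18.6% and 18.9% of all genes, with a median of 0.07. The G1/S list, 25 genes, had 12 higher and 5 lower. In it E2F1 was higher by 0.46, the CDK inhibitor CDKN2C by 0.63 and cyclin D1 (CCND1) by 0.29, against lower CDK4 at -0.15 and MYC at -0.10. Replication histones, read from polyadenylated RNA, had 1 higher and 4 lower of 8 tested. Only these 8 of the 23 listed symbols were found in the data.

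**Figure D3:**
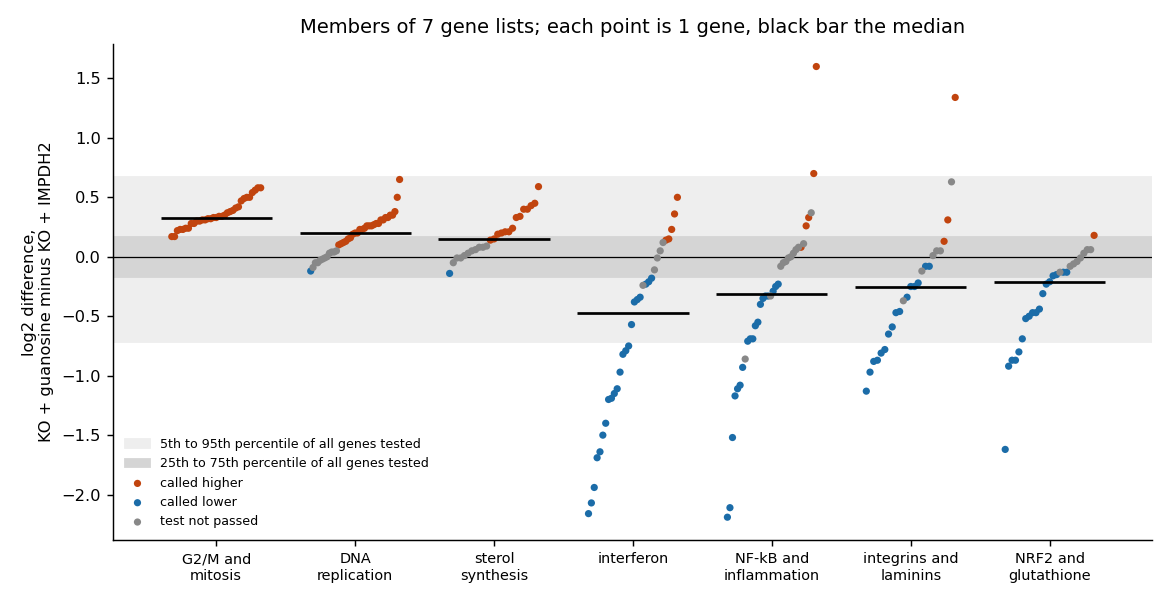
Log2 difference, KO + guanosine minus KO + IMPDH2, on the vertical axis for every tested member of 7 gene lists, 1 point for each gene, coloured by its call, with a black bar at each list's median. Shaded bands hold the middle 50% (-0.17 to 0.17) and the 5th to 95th percentile (-0.72 to 0.67) of all genes tested. The 33 G2/M genes all lie above 0, between 0.17 and 0.58, and most interferon genes lie below it with a median of -0.48.

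PARP1, the damage-sensing ADP-ribosyl transferase of the study's title, was modestly higher with guanosine. It had 406, 406 and 405 CPM in KO + guanosine, against 349, 353 and 354 CPM in KO + IMPDH2. The groups did not overlap, and the log2 difference was 0.21 ± 0.026 (SE; adjusted p = 5.09e-06, edgeR), a call lost with the transcript length offset (0.20, adjusted p = 0.288). PARP1 averaged 377 CPM with the nuclear form, 364 CPM with the cytosolic form, 271 CPM in KO and 251 CPM in WT. The wider list of 24 ADP-ribosylation genes had 3 higher and 9 lower, beside 18.6% and 18.9% of all genes. The other 2 higher members were the hydrolases ADPRS (0.26) and OARD1 (0.17), and the lower ones included PARP9 (-0.35) and PARP14 (-0.30), both also known as interferon-induced. PARP2, which acts beside PARP1 at breaks, differed by 0.07, and the glycohydrolase PARG by 0.01, and neither passed. Among 21 NAD genes 5 were higher and 8 lower, but with the transcript length offset 0 were called higher and 2 lower. NAMPT, the rate-limiting enzyme of NAD salvage, had 317, 314.5 and 313.5 CPM in KO + guanosine, against 465, 455 and 448 CPM in KO + IMPDH2, a log2 difference of -0.53 ± 0.033 (SE; adjusted p = 1.09e-09, edgeR).

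p53 targets were divided. Of 29 tested genes 10 were higher and 8 lower, beside 18.6% and 18.9% of all genes. The CDK inhibitor CDKN1A had 91.3, 93.2 and 87.8 CPM in KO + guanosine, against 72.6, 77.2 and 74.4 CPM in KO + IMPDH2 (0.28 ± 0.051, SE; adjusted p = 0.000284, edgeR), and lost its call with the offset (adjusted p = 0.0581). GADD45A was higher by 0.38 and GADD45B by 0.50, while the apoptosis gene PMAIP1 was lower by -0.56 and the stress sensor SESN2 by -0.34. MDM2, BAX and BBC3 differed by 0.08, -0.08 and 0.09 and did not pass.

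Interferon-stimulated genes were mostly lower with guanosine. These genes carry the antiviral programme that cells switch on through the ISGF3 complex, and many have an interferon-stimulated response element close to their start site. Of 32 tested members 22 were lower and 5 higher in KO + guanosine, against 18.9% and 18.6% of all genes, with a median log2 difference of -0.48. Their summed level was 1032 to 1051 CPM in KO + guanosine and 1634 to 1683 CPM in KO + IMPDH2. A fall of 2-fold or more was reached by 11 members and a rise of that size by 0. With the transcript length offset 18 were called lower and 3 higher.

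Promoters of 4 of the falling genes are shown for that element. Sequences are from RefSeq (GRCh38.p14), shortened to the part before the annotated gene, and capitals mark GAAANNGAAA on either strand. IFI44 is at chr1:78649539-78649788, plus strand. IFIT1 is at chr10:89392373-89392545, plus strand, and IFIT3 at chr10:89327747-89327893, plus strand, both encoding proteins that bind foreign RNA. IFIH1, which encodes the cytosolic RNA sensor MDA5, is at chr2:162318704-162318934, minus strand, and its 2 matches overlap.
IFIT1: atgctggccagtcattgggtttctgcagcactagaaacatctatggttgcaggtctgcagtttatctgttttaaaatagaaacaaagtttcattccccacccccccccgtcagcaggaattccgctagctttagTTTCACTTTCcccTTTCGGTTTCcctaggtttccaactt
IFIT3: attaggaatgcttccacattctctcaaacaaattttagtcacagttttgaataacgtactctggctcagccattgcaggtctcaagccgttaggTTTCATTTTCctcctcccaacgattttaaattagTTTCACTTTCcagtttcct
IFI44: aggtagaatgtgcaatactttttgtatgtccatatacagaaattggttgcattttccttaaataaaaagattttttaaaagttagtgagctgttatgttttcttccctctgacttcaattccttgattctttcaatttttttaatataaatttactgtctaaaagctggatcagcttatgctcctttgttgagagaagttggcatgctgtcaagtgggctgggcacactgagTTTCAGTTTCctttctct
IFIH1: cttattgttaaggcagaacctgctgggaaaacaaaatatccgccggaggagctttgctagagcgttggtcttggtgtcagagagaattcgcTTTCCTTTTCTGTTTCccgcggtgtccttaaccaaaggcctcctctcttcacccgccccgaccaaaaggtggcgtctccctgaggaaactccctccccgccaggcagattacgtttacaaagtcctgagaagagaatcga
The matches start at -116 and -103 from the RefSeq start site in IFIT1, at -156 and -122 in IFIT3, at -18 in IFI44, and at -159 and -153 in IFIH1. Of 24 list members with an entry, 13 (54.2%) held the motif in the 250 bases before the start, against 3.07% of all 27305 promoters. By direction, 9 of 17 lower members and 2 of 4 higher members held it.

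The induced effectors differed most. IFIT1 had 25.4, 26.0 and 24.4 CPM in KO + guanosine, against 112, 111 and 117 CPM in KO + IMPDH2, a log2 difference of -2.16 ± 0.072 (SE; adjusted p = 3.34e-13, edgeR). OASL, an antiviral relative of the 2',5'-oligoadenylate synthetases, had 10.7, 11.2 and 11.4 CPM in KO + guanosine, against 46.7, 46.2 and 47.0 CPM in KO + IMPDH2 (-2.07). Both genes were separated without overlap. IFIT2 averaged 65.1 CPM in KO + guanosine and 210 CPM in KO + IMPDH2 (-1.69), and IFIT3 averaged 77.3 CPM in KO + guanosine and 204 CPM in KO + IMPDH2 (-1.40). IFIH1 had 3.95, 4.13 and 3.04 CPM in KO + guanosine, against 13.97, 14.1 and 14.7 CPM in KO + IMPDH2 (-1.94). IFI44 had 17.2, 17.6 and 16.5 CPM in KO + guanosine, against 47.5, 49.2 and 48.8 CPM in KO + IMPDH2 (-1.50 ± 0.038, SE; adjusted p = 8.91e-15, edgeR). The ubiquitin-like modifier ISG15 was lower by -1.11 and the RNA sensor RIGI by -0.75.

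The factors that drive these genes differed far less, and some members went the other way. STAT2 was lower by -0.36 and IRF9 by -0.18 on the log2 scale. IRF7, the amplifying transcription factor, had 31.6, 31.4 and 29.9 CPM in KO + guanosine, against 22.8, 22.1 and 20.9 CPM in KO + IMPDH2, without overlap (0.50 ± 0.060, SE; adjusted p = 3.57e-06, edgeR). BST2, the tetherin that holds virions at the membrane, had 44.8, 45.3 and 43.8 CPM in KO + guanosine, against 36.0, 34.7 and 33.3 CPM in KO + IMPDH2 (0.36). IFI6 (0.23), IRF1 (0.15) and EIF2AK2 (0.14) were the other higher members. MX1 differed by -0.01 and, with TRIM22, USP18, OAS3 and IFIT5, did not pass.

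Placed among all 6 groups, IFIT1 in KO + guanosine stood next to its unedited level. IFIT1 averaged 25.3 CPM in KO + guanosine, 113 CPM in KO + IMPDH2, 111 CPM with the nuclear form, 78.4 CPM with the cytosolic form, 73.5 CPM in KO and 27.8 CPM in WT. KO + guanosine and WT did not differ past the threshold for IFIT1 (log2 difference -0.13, adjusted p = 0.144, edgeR), nor did KO + IMPDH2 and the nuclear line (0.03, adjusted p = 0.866). Over the list, 25 members were lower and 3 higher in KO + guanosine against KO (median -0.67), while 15 were higher and 8 lower in KO + IMPDH2 against KO (median 0.11). The shares over all genes were 29.2% lower in the first contrast and 25.7% higher in the second, and the contrasts share the KO libraries. Against WT, KO + guanosine had 14 higher and 11 lower (median -0.02), and KO + IMPDH2 had 24 higher and 5 lower (median 0.80). Over all genes, 31.1% were higher and 32.9% lower in KO + guanosine against WT, and 31.1% higher and 33.4% lower in KO + IMPDH2 against WT. KO + guanosine was also lower than the nuclear line at 21 of 32 members (median -0.48), where 18.7% of all genes were lower, and lower than the cytosolic line at 17, with 10 higher (median -0.18), where 21% of all genes were lower.

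**Figure D4:**
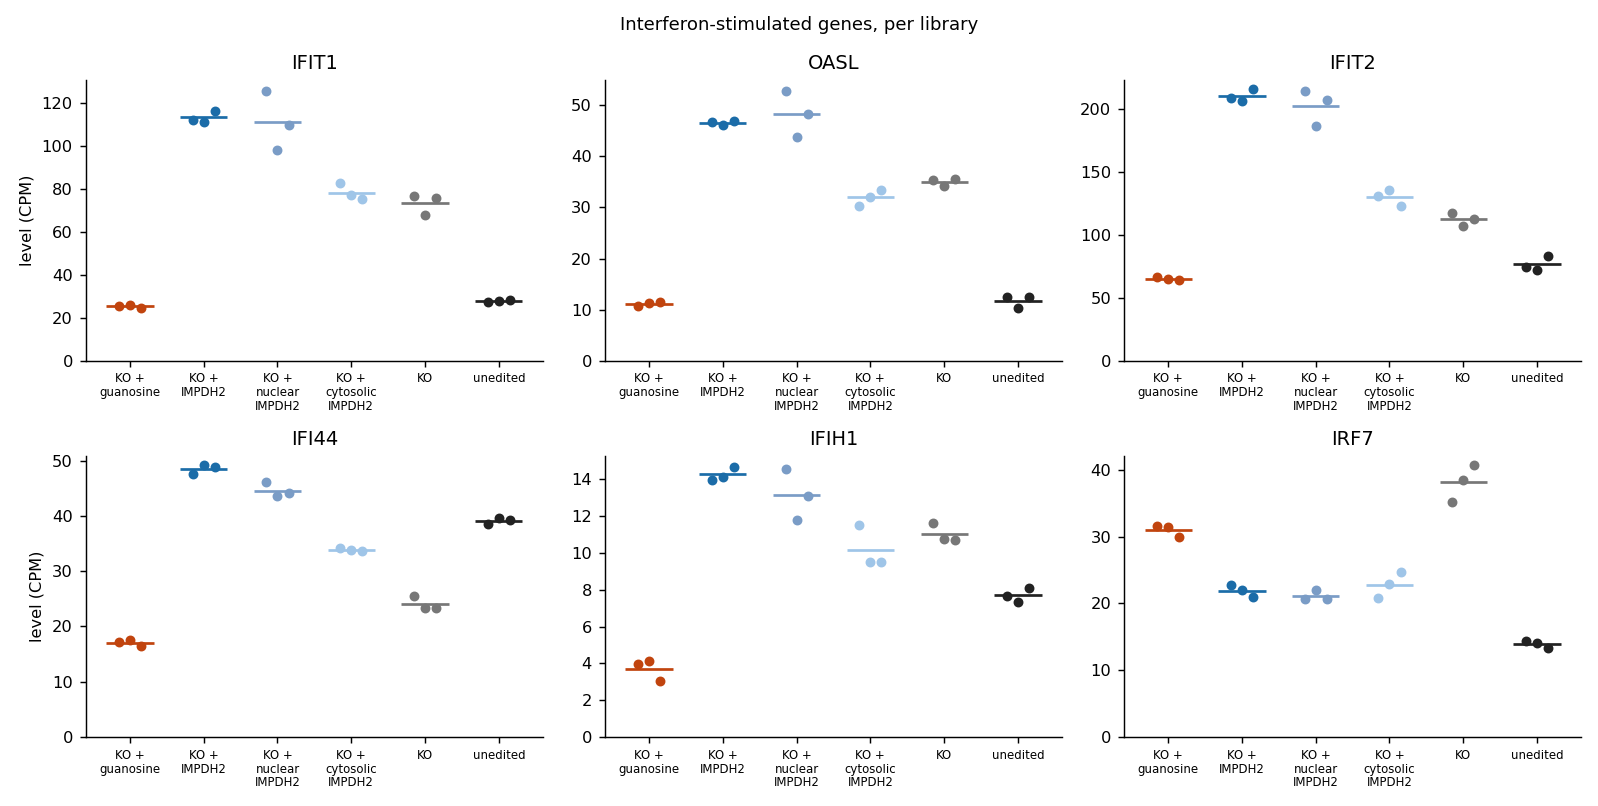
Levels of IFIT1, OASL, IFIT2, IFI44, IFIH1 and IRF7 in CPM on linear axes from 0, 1 point for each library of the 6 groups, with a line at each group's mean and WT shown as unedited. IFIT1 lies between 24.4 and 26.0 CPM in KO + guanosine and between 111 and 117 CPM in KO + IMPDH2, and averages 27.8 CPM in WT, and IRF7 runs the other way between the 2 rescues.

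Inflammatory targets of NF-kB were also mostly lower than in KO + IMPDH2, and the counts differed when the nuclear or cytosolic line took its place. Of 36 tested members 19 were lower and 5 higher, beside 18.9% and 18.6% of all genes, with a median log2 difference of -0.31. PTGS2, the inducible cyclooxygenase, had 14.8, 15.7 and 15.8 CPM in KO + guanosine, against 45.6, 42.4 and 44.8 CPM in KO + IMPDH2 (-1.52 ± 0.092, SE; adjusted p = 8.47e-10, edgeR). It averaged 25.3 CPM with the nuclear form, 46.1 CPM with the cytosolic form, 75.1 CPM in KO and 24.4 CPM in WT. The cytokine IL1A had 1.34, 1.18 and 0.904 CPM in KO + guanosine, against 5.48, 4.43 and 4.89 CPM in KO + IMPDH2 (-2.11). The feedback inhibitor TNFAIP3 had 22.7, 23.1 and 23.2 CPM in KO + guanosine, against 34.5, 34.7 and 34.0 CPM in KO + IMPDH2 (-0.58). IL1B (-1.17), CSF1 (-0.93), TRAF1 (-0.71) and the neutrophil attractant CXCL8 (-0.69) were lower too, and none of the named genes overlapped between groups.

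A pair of cytokines of the IL6 family went up. IL11 had 8.11, 7.94 and 9.39 CPM in KO + guanosine, against 3.24, 2.54 and 2.59 CPM in KO + IMPDH2 (1.60 ± 0.13, SE; adjusted p = 2.71e-08, edgeR), and both stood far below the 67.3 CPM of WT. IL6 had 10.8, 10.5 and 11.4 CPM in KO + guanosine, against 7.12, 6.46 and 6.51 CPM in KO + IMPDH2 (0.70). The factors NFKB1 and RELA and the inhibitor NFKBIA did not pass. Against the nuclear line, KO + guanosine had 14 NF-kB targets higher and 7 lower (median 0.08), and against the cytosolic line 18 higher and 7 lower (median 0.21). The shares over all genes were 18.6% higher and 18.7% lower against the nuclear line, and 22.2% higher and 21% lower against the cytosolic line. KO + IMPDH2 itself had 25 higher and 2 lower against the nuclear line, where 6.31% of all genes were higher and 5.65% lower, and 22 higher and 0 lower against the cytosolic line, where 13.4% were higher and 10.8% lower. Against KO, 24 were lower in KO + guanosine (median -0.55) and 22 in KO + IMPDH2 (median -0.27), beside 29.2% and 25.1% of all genes. The letters GGGNNTTTCC, a kB site, stood in 12 of 29 promoters of the list (41.4%) and in 1.73% of all promoters, but in 3 of 14 lower members and 1 of 4 higher members.

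Extracellular proteolysis and adhesion differed by gene. Matrix proteases and their inhibitors had 12 lower and 6 higher of 26, beside 18.9% and 18.6% of all genes. Against the nuclear line KO + guanosine had 9 lower and 4 higher, and against the cytosolic line 12 lower and 4 higher. Over all genes, 18.7% and 21% were lower in these contrasts. KO + IMPDH2 itself had 11 higher and 0 lower against the nuclear line, and 9 higher and 8 lower against the cytosolic line. There 6.31% and 13.4% of all genes were higher. MMP3, stromelysin, had 13.1, 13.7 and 13.3 CPM in KO + guanosine, against 64.0, 66.3 and 64.3 CPM in KO + IMPDH2 (-2.28 ± 0.11, SE; adjusted p = 5.63e-11, edgeR). TFPI2, a secreted Kunitz inhibitor of plasmin and trypsin-like proteases, had 78.0, 79.9 and 76.5 CPM in KO + guanosine, against 286, 274 and 276 CPM in KO + IMPDH2 (-1.83 ± 0.040, SE; adjusted p = 1.18e-15, edgeR). Both were separated without overlap. MMP1, the abundant interstitial collagenase, averaged 10253 CPM in KO + guanosine and 16589 CPM in KO + IMPDH2 (-0.69), beside 21780 CPM in KO and 2048 CPM in WT. The plasminogen activator PLAU went the other way, with 551, 529 and 534 CPM in KO + guanosine, against 413, 414 and 406 CPM in KO + IMPDH2 (0.39).

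Integrins and laminins had 16 lower and 3 higher of 25, beside 18.9% and 18.6% of all genes, with a median log2 difference of -0.25. Their summed level was 4753 to 4824 CPM in KO + guanosine and 5559 to 5771 CPM in KO + IMPDH2. Against the nuclear line KO + guanosine had 5 higher and 10 lower (median -0.06). Against the cytosolic line it had 9 higher and 8 lower (median 0.04). Over all genes, 18.6% were higher and 18.7% lower in the first contrast, and 22.2% and 21% in the second. KO + IMPDH2 itself had 14 higher and 1 lower against the nuclear line, and 18 higher and 1 lower against the cytosolic line. There 6.31% and 13.4% of all genes were higher. ITGA2, the collagen receptor chain, had 342, 325 and 321 CPM in KO + guanosine, against 619, 589 and 595 CPM in KO + IMPDH2 (-0.87). ITGA5, the fibronectin receptor chain, had 81.3, 79.1 and 79.1 CPM in KO + guanosine, against 149.03, 148.5 and 144.5 CPM in KO + IMPDH2 (-0.88), and lost its call with the transcript length offset (-0.57, adjusted p = 0.161). The laminin receptor chain ITGA7 was higher by 1.34 and the leukocyte chain ITGB2 by 0.31. Collagens were divided, with 7 higher and 8 lower of 24.

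Lists of redox metabolism and glycolysis had more lower than higher members. Of 27 NRF2 targets and pentose phosphate genes 18 were lower and 1 higher, beside 18.9% and 18.6% of all genes, with a median of -0.21. Their summed level was 5387 to 5499 CPM in KO + guanosine and 7201 to 7312 CPM in KO + IMPDH2. The ferritin light chain FTL had 1598, 1640 and 1584 CPM in KO + guanosine, against 2565, 2649 and 2563 CPM in KO + IMPDH2 (-0.69 ± 0.040, SE; adjusted p = 5.36e-10, edgeR). The cystine carrier SLC7A11 had 103, 106 and 112 CPM in KO + guanosine, against 197, 180 and 183 CPM in KO + IMPDH2 (-0.80). The reductases AKR1B10 (-1.62) and SRXN1 (-0.44) were lower. Against KO the same list had 13 higher and 4 lower in KO + guanosine (median 0.14) and 24 higher and 0 lower in KO + IMPDH2 (median 0.41), beside 27.3% and 25.7% of all genes.

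Glycolysis and hypoxia genes had 20 lower and 6 higher of 32 (median -0.16), beside 18.9% and 18.6% of all genes. Against the nuclear line KO + guanosine had 15 lower and 8 higher, and against the cytosolic line 10 lower and 8 higher. Over all genes, 18.7% and 21% were lower in these contrasts. KO + IMPDH2 itself had 8 higher and 1 lower against the nuclear line, and 19 higher and 2 lower against the cytosolic line. GAPDH had 2349, 2405 and 2393 CPM in KO + guanosine, against 3010.1, 3056 and 2935 CPM in KO + IMPDH2 (-0.33), and the glucose carrier SLC2A3 was lower by -0.59. ENO1 (0.23), PFKP (0.24), the lactate carrier SLC16A3 (0.42) and the peptide ADM (0.49) were among the higher. The list of ATF4-linked genes and tRNA synthetases had 16 lower and 5 higher of 33. ATF4 itself, the amino acid stress factor, had 277, 262 and 274 CPM in KO + guanosine, against 201, 202 and 204 CPM in KO + IMPDH2 (0.42 ± 0.027, SE; adjusted p = 1.43e-09, edgeR). The mTORC1 and lysosome list had 16 lower and 4 higher of 31, and the unfolded protein response 10 lower and 2 higher of 24. For this last list KO + guanosine had 5 higher and 5 lower against the nuclear line. Against the cytosolic line it had 6 higher and 11 lower. KO + IMPDH2 itself had 9 higher and 0 lower against the nuclear line, and 7 higher and 4 lower against the cytosolic line. MHC class I presentation had 11 lower and 3 higher of 20. Against the nuclear line KO + guanosine had 6 of these higher and 2 lower, and against the cytosolic line 11 higher and 5 lower. KO + IMPDH2 itself had 9 higher and 0 lower against the nuclear line, and 15 higher and 2 lower against the cytosolic line. Over all genes, 18.6% and 22.2% were higher in KO + guanosine against these lines, and 6.31% and 13.4% in KO + IMPDH2. Respiratory chain genes of the nucleus had 9 lower and 5 higher of 38 (23.7% and 13.2%). Of the 13 mitochondrially encoded genes 5 were higher and 0 lower, and their share of all counts was 6.74% to 7.43% in KO + guanosine and 6.47% to 6.82% in KO + IMPDH2.

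Sterol synthesis and YAP targets leaned higher. Of 25 sterol genes 14 were higher and 1 lower in KO + guanosine, beside 18.6% and 18.9% of all genes, with a median of 0.15. IDI1, the isopentenyl diphosphate isomerase, had 168, 169.6 and 168 CPM in KO + guanosine, against 123, 122 and 129 CPM in KO + IMPDH2 (0.43 ± 0.039, SE; adjusted p = 1.05e-07, edgeR). EBP was higher by 0.45 and FDPS by 0.33, while PMVK was lower by -0.14. Against the nuclear line 21 sterol genes were higher and 1 lower in KO + guanosine (median 0.23), and against the cytosolic line 23 higher and 1 lower (median 0.40), where 18.6% and 22.2% of all genes were higher. Of 25 YAP targets 13 were higher and 4 lower, with a median of 0.14. The secreted matricellular protein CCN1 had 873, 905 and 865 CPM in KO + guanosine, against 604, 602 and 613 CPM in KO + IMPDH2 (0.54), and F3, tissue factor, was higher by 0.72.

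The remaining lists were near the background of 18.6% higher and 18.9% lower over all genes, or divided. TGF-beta and BMP genes had 8 higher and 8 lower of 28, among them the activin chain INHBB, whose 31.1, 29.9 and 30.1 CPM in KO + guanosine stood against 10.99, 11.4 and 10.4 CPM in KO + IMPDH2 (1.48). AP-1 and immediate early genes had 9 higher and 7 lower of 25, with EGR1 lower by -0.61 and FOSL2 higher by 0.46. EGFR ligands and receptors had 4 higher and 6 lower of 13. One-carbon and serine genes had 6 higher and 3 lower of 21. In that list the serine synthesis enzyme PHGDH was listed at 0 in the 3 KO + guanosine libraries and at 0.054, 0 and 0.019 CPM in KO + IMPDH2, with a mean of 0 in the nuclear, cytosolic and KO groups, beside 65.0 CPM in WT. All 5 knockout-derived groups were therefore at or near 0 for a transcript that the unedited cells held, whatever their rescue.

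Some of the largest differences belonged to single genes outside these lists. IL13RA2, a decoy receptor for IL-13, had 1.04, 1.45 and 1.03 CPM in KO + guanosine, against 29.1, 30.9 and 31.2 CPM in KO + IMPDH2 (-4.68 ± 0.11, SE; adjusted p = 1.87e-15, edgeR). It averaged 1.30 CPM with the nuclear form, 3.88 CPM with the cytosolic form, 1.16 CPM in KO and 1.07 CPM in WT. The high level thus stood in KO + IMPDH2, which was above the nuclear line by 4.55 (adjusted p = 8.27e-15) and above the cytosolic line by 2.97 (adjusted p = 1.5e-12) in the same edgeR fit, while KO + guanosine and KO differed by 0.02 (adjusted p = 0.906).

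For 2 other genes the level was high both in KO + guanosine and in the unrescued knockout. KISS1, which encodes the kisspeptin precursor, had 20.5, 18.4 and 18.6 CPM in KO + guanosine, against 4.42, 4.23 and 4.06 CPM in KO + IMPDH2 (2.18 ± 0.096, SE; adjusted p = 1.47e-11, edgeR), beside 17.9 CPM in KO. KO + guanosine and KO did not differ past the threshold for KISS1 (0.10, adjusted p = 0.36). The ephrin receptor EPHB1 had 11.6, 11.6 and 12.9 CPM in KO + guanosine, against 2.76, 2.41 and 2.20 CPM in KO + IMPDH2 (2.29), beside 9.76 CPM in KO and 0.717 CPM in WT. All 3 lines with IMPDH2 were low for EPHB1, with 1.69 CPM for the nuclear and 2.26 CPM for the cytosolic form. DMBT1, a secreted scavenger receptor glycoprotein, showed another order, with 13.98, 14.7 and 14.9 CPM in KO + guanosine, against 3.44, 4.04 and 3.76 CPM in KO + IMPDH2 (1.96), and averages of 3.07 CPM in KO and 25.5 CPM in WT.

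**Figure D5:**
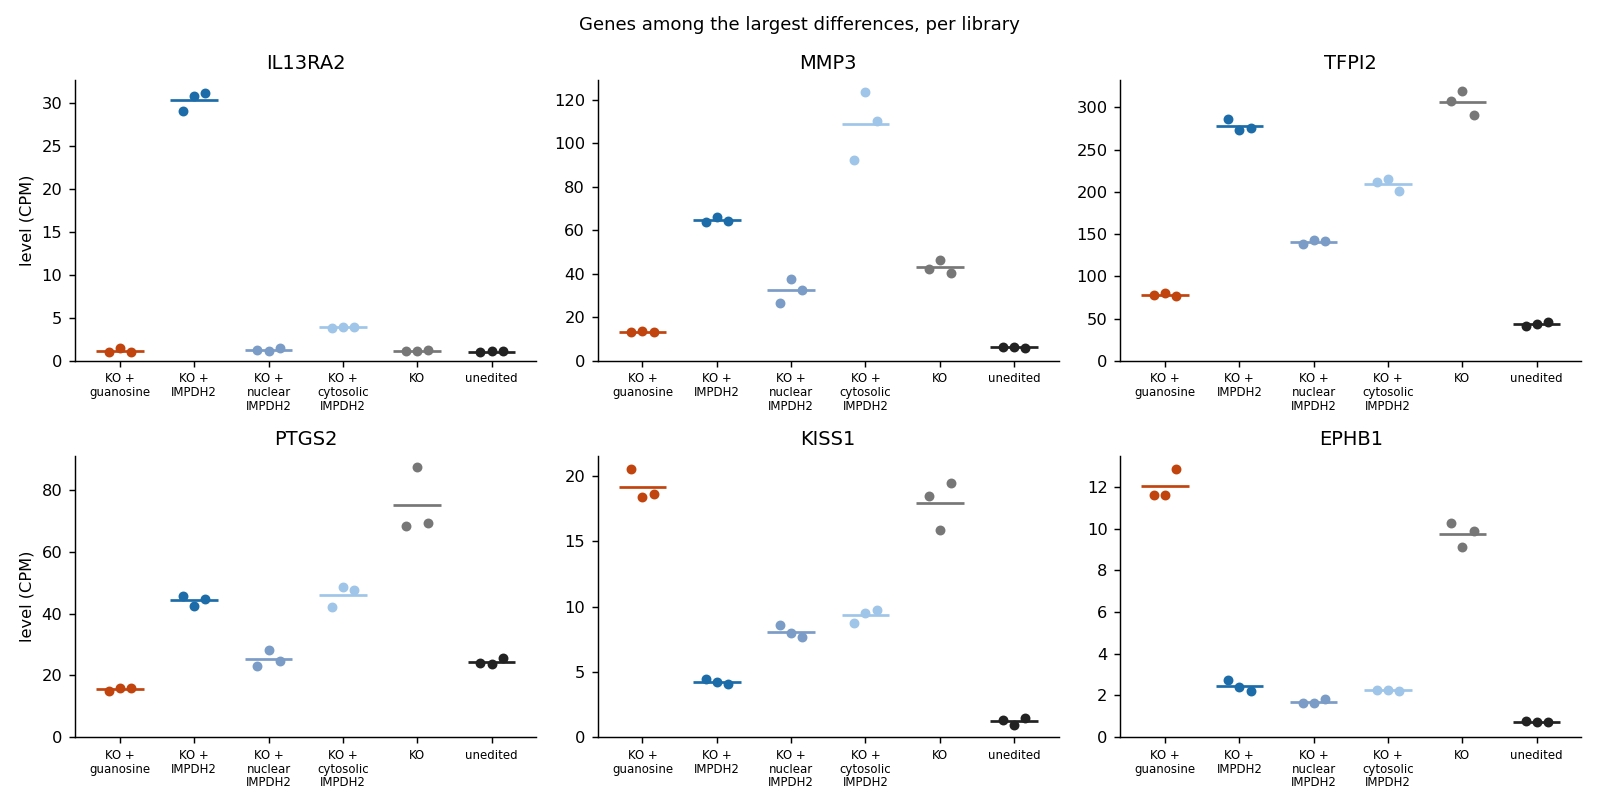
Levels of IL13RA2, MMP3, TFPI2, PTGS2, KISS1 and EPHB1 in CPM on linear axes from 0, 1 point for each library of the 6 groups, with a line at each group's mean. IL13RA2 is between 1.03 and 1.45 CPM in KO + guanosine and between 29.1 and 31.2 CPM in KO + IMPDH2, and KISS1 and EPHB1 are high in KO + guanosine and KO.

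The remaining genes with the largest differences were read with their annotation in mind. ESM1, an endothelial proteoglycan, was lower by -1.79 and the carrier SLC16A6 by -1.84, while the chloride channel ANO2 was higher by 1.92. MAGEA6, ALPP, H4C14 and the read-through locus ARHGAP11A-SCG5 were higher by 4.02, 1.53, 1.48 and 1.64, but each shares sequence with close copies or overlapping genes, and the counts assigned to them are uncertain. MAGEA6 stood at 1.59, 1.90 and 1.66 CPM in KO + guanosine and at 0.036, 0.127 and 0.149 CPM in KO + IMPDH2, both far below the 38.4 CPM of WT.

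The markers of a mesenchymal line were expressed in both groups. Mesenchymal markers summed to 7477 to 7820 CPM in KO + guanosine and 8668 to 8843 CPM in KO + IMPDH2, with 6 of 13 lower and 0 higher, among them VIM (-0.20), FN1 (-0.42) and ZEB1 (-0.31). Luminal markers summed to 711 to 758 CPM in KO + guanosine and 652 to 664 CPM in KO + IMPDH2, with 5 of 12 higher and 2 lower, and ESR1, PGR, CDH1, GRHL2 and TFF1 lay below 0.1 CPM in all 6 libraries. Blood and endothelial markers summed to 433 to 459 CPM in KO + guanosine and 574 to 591 CPM in KO + IMPDH2, nearly all of it CD68, a lysosomal protein, with 4 of 8 tested members lower and 0 higher, and CD3E, HBB and CDH5 lay below 0.1 CPM. Fibroblast markers summed to 11.02 to 12.3 CPM in KO + guanosine and 8.68 to 9.76 CPM in KO + IMPDH2, with 1 higher and 1 lower of 5. The part of these marker levels in the results above was not tested.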

How the data were processed

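Stranded TruSeq mRNA libraries were made from 500 ng of RNA, per the labels' protocols. The submitters' processing notes name Salmon 1.10.0, Trim Galore 0.6.10 and hg19. The deposited tables hold the authors' estimated counts, TPM and effective lengths of 252048 transcripts. Here the deposited estimated counts were summed to 62749 genes and rounded, since 32.5% were not whole. All 18 libraries entered 1 edgeR 4.0.16 quasi-likelihood fit (R 4.3.3) with TMM scaling, after filterByExpr. TMM against library totals moved the median by 0.015 on the log2 scale. TPM, as deposited, was summed to genes for levels between genes. CPM of a single transcript uses the library total without TMM.

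Named genes were IMPDH2, IMPDH1, the 12 higher and 12 lower coding genes of largest fold (average log2 CPM at least 1, groups not overlapping), tested guanine-branch genes, and up to 3 called members a list in each direction by adjusted p. Other genes named (such as PARP1, PCNA, CDKN1A and the members that did not pass) were chosen after their values were seen, and some genes under this rule are not reported here. The members and the 41 lists were chosen with earlier results of these data known, and contrasts with KO and WT stand beside them without a test of overlap. On simulated counts of 18822 genes the fit recovered 55.2%, 68.7% and 84.8% of genes changed by log2 0.5, 1 and 2. Of the genes called there, 3.5% had not been changed. The simulation changed 67, 67 and 66 genes at these sizes, far fewer than the 7230 called in the data. Alternatives were DESeq2 1.42.0 size factors and Wald test, no filter, a replicate block, the 6 libraries alone, a transcript length offset, coding genes alone, a 2-fold minimum, the per-sample tables, and each library left out. The cell line label rises by 1 from sample to sample although the growth protocol names MDA-MB-231, so 1 line was assumed. Tables and plots were made with pandas 2.3.3, matplotlib 3.10.9 and numpy 2.4.6 under Python 3.11.15. Positions are from GENCODE 29 (GRCh38).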

Additional observations from a re-analysis of the deposited data

How the results depend on the processing

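Of 7230 genes changed, other settings gave 6796 to 7721, except the transcript length offset with 4145 (1962 higher, 2183 lower) and the 2-fold minimum with 527. Leaving out 1 library at a time gave 6256 to 6327. List members changed numbered 564, 367 with the offset (168 higher, 199 lower), 34 with the 2-fold minimum and 512 to 526 with a library left out. The IMPDH2 difference of -4.59 was -4.86 with the offset and -4.60 to -4.58 without 1 library. Signs reversed under the offset, without passing the test, for AMPD2 (0.10), COL8A1 (-0.24) and TK2 (1.26). The cause was not tested. Of 234 named genes, which include some that did not pass, 184 had the same direction and the same side of the threshold with the offset. Same-numbered replicates deviated together with correlations of -0.006, 0.005 and 0.079, beside -0.054 to 0.047 for differently numbered ones. No clear pairing by number was seen, but with 3 libraries a group this cannot exclude paired cultures. The fit with a replicate block gave 7106 genes, and H1-4 and ORC3 lost their calls under it. Fitted alone with the block, a setting chosen after seeing the data, the 6 libraries gave 7721. With 3 libraries a group, depth limits mainly low genes such as GDA, which was not tested.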

Other observations

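Further gene families, chosen after their values were seen and so described without support from their counts, also separated KO + guanosine and KO + IMPDH2. Lysosomal cathepsins, the proteases of the lysosome, had 8 lower and 1 higher of 13 in KO + guanosine, with a median log2 difference of -0.40, where 18.9% of all genes were lower. Against the nuclear line KO + guanosine had 7 lower and 4 higher (median -0.14). Against the cytosolic line it had 7 lower and 3 higher (median -0.13). KO + IMPDH2 itself had 8 higher and 0 lower against each of these lines, where 6.31% and 13.4% of all genes were higher. CTSD had 482, 473 and 469 CPM in KO + guanosine, against 771, 721 and 716 CPM in KO + IMPDH2 (-0.63), and CTSB was lower by -0.65, while CTSZ differed by 0.02 and did not pass. Salivary-type cystatins, secreted inhibitors of such proteases, had 3 lower and 0 higher of 6. Against the nuclear line KO + guanosine also had 3 lower and 0 higher, where 18.7% of all genes were lower. Against the cytosolic line it had 3 higher and 0 lower (median 0.70), where 22.2% of all genes were higher. KO + IMPDH2 itself had 4 higher and 0 lower against the cytosolic line (median 1.62), where 13.4% of all genes were higher. CST1 had 61.7, 52.7 and 57.9 CPM in KO + guanosine, against 166, 129.7 and 161 CPM in KO + IMPDH2 (-1.41, edgeR adjusted p = 5.05e-07), and these close copies may share reads. MHC class II genes had 10 lower and 2 higher of 14 (median -0.46). Against the nuclear line 12 were lower and 0 higher in KO + guanosine, but against the cytosolic line 4 lower and 4 higher. HLA-DRA had 76.0, 77.1 and 77.3 CPM in KO + guanosine, against 114, 113 and 110.2 CPM in KO + IMPDH2 (-0.55), both far above the 7.92 CPM of WT, while CIITA, the master regulator of the class, was lower by -0.23.

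Families on the higher side were centromere proteins, tubulins and the host genes of small nucleolar RNAs. Centromere proteins had 14 higher and 0 lower of 21 (median 0.22), where 18.6% of all genes were higher. Beta-tubulins had 5 higher and 0 lower of 7 (median 0.33). TUBB had 3439, 3456 and 3506 CPM in KO + guanosine, against 2719.6, 2829 and 2736 CPM in KO + IMPDH2 (0.33). Of 28 small nucleolar RNA host genes 12 were higher and 1 lower (median 0.14). SNHG29 had 414, 409 and 420.4 CPM in KO + guanosine, against 298, 298 and 301 CPM in KO + IMPDH2 (0.47). The single lower member, SNHG5, had 59.5, 62.1 and 63.6 CPM in KO + guanosine, against 119, 128 and 125 CPM in KO + IMPDH2 (-1.01). Metallothioneins had 3 lower and 0 higher of 6.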
